A study of Mus musculus with 21 samples.

Results

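The transcription factors Cux1, Cux2, Rorb, Bcl11b, Fezf2, Tbr1, Foxp2, Tle4 and Mef2c, which mark or specify the layers of the cerebral cortex, were followed in the brains of SAMP8 mice. These 9 genes were chosen by name, all 9 were among the 16318 genes in the count table, and all 9 passed the filter on low counts that left 16303 genes. SAMP8 is a senescence-accelerated mouse strain, and both groups carried that background, with no SAMR1 or other strain analysed here. PBS was given to 12 mice (6 female, 6 male), and 9 mice (3 female, 6 male) were given HsTX1[R14A], a peptide blocker of the Kv1.3 potassium channel, at 1 mg/kg under the skin on alternate days over 8 weeks. The mice were 6 months old at the end, the brains were perfused, and each mouse gave 1 library from RNA described by the authors as whole-brain. The comparison asked whether the levels of these factors differed between treated and control brains.

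Cortical projection neurons of different layers send their axons to different targets, and this identity is set during development by transcription factors that partly repress each other. Cux1 and Cux2 are homeodomain factors of the upper layers, Rorb is a nuclear receptor of layer IV, Bcl11b (Ctip2) and Fezf2 are zinc finger factors of the subcerebral projection neurons of layer V, and Tbr1, Foxp2 and Tle4 mark the corticothalamic neurons of layer VI. Mef2c is an activity-dependent MADS-box factor of excitatory neurons in several layers. Many of them stay expressed in the adult, and several are also used outside the cortex. Bcl11b and Foxp2 are well known in the medium spiny neurons of the striatum, and Foxp2 also in the thalamus and in Purkinje cells.

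The libraries held 14917174 to 47613792 counts, so that even the lowest member value, 159 reads of Fezf2, lay far above the detection limit, and the spread between mice set the precision. Defining markers of neurons were present throughout, whereas the cerebellar granule cell gene Gabra6 was under 1 CPM (library-size-scaled read counts) in 16 of 21 brains (10 of 12 PBS and 6 of 9 HsTX1[R14A]) and reached 90.1 CPM in HsTX1[R14A] male mouse 74. The share of reads from mitochondrially encoded genes was 14.7% ± 3.69 (SD, n = 12) in PBS and 9.54% ± 1.91 (SD, n = 9) in HsTX1[R14A] brains, a difference of -5.55 percentage points after averaging over the sexes (exact permutation test within sex, two-sided, p = 0.00142). Libraries also differed in how far long transcripts were favoured. The length slope, the slope of a library's log2 CPM (relative to the mean of all mice) on the log2 length of the longest transcript, was -0.076 ± 0.16 (SD, n = 12) in PBS and 0.10 ± 0.12 (SD, n = 9) in HsTX1[R14A] brains, a difference of 0.20 (exact permutation test, p = 0.00631). It was lowest in PBS female mouse 103 (-0.38) and PBS male mouse 90 (-0.34). Finally, library names in the table take 2 forms, the common form with 10 PBS and 5 treated mice and the other with 2 PBS and 4 treated mice. What the forms stand for is not given in the sources used here.

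Per kilobase of the longest transcript, Mef2c was the most abundant of the 9 factors, at 71.0 ± 18.4 CPM per kb (SD, n = 21). Tbr1 followed at 18.8 ± 7.17, Bcl11b at 16.5 ± 4.0, Tle4 at 11.5 ± 1.99 and Fezf2 at 8.48 ± 2.25 CPM per kb. The lowest levels per kb were those of Cux1 (6.92 ± 1.10), Foxp2 (6.73 ± 1.15), Cux2 (6.34 ± 2.39) and Rorb (5.38 ± 1.01). Across mice the ranges of all 8 neighbours in this order overlapped, but Mef2c was above Tbr1 and Bcl11b was above Tle4 in 21 of 21 mice, and Tle4 was above Fezf2 in 18. Cux1, Foxp2 and Cux2 could not be ordered, Cux1 being above Foxp2 in 11 and Foxp2 above Cux2 in 10 of 21 mice. Each library mixes many cell types, so a lower level can mean fewer cells of a type or less RNA per cell, and these cannot be told apart. The cerebellar gene Gabra6 was under 1 CPM in 16 of 21 brains, and whether the tissue sampled was the same in each mouse was not tested.

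Cux2 and Tbr1 were the most variable of the 9. After removal of sex and treatment, the SD of log2 CPM between mice was 0.63 for Cux2 and 0.57 for Tbr1, larger than in 92.2% and 89.3% of the 16303 genes, whose median SD was 0.28. The smallest SD values were 0.23 for Cux1 and 0.24 for Tle4, and the other 5 factors lay from 0.27 (Foxp2) to 0.40 (Fezf2).

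None of the 9 factors differed between treated and control brains at an FDR of 0.05 in the edgeR quasi-likelihood test, in which 31.6% of all genes tested did. At an unadjusted p under 0.05, 2 of 9 (Bcl11b and Tle4) did, beside 7562 of 16303 genes. Limma/voom also called 0 of 9, beside 5201 of 16303 genes, and DESeq2 called 2 of 9, again Bcl11b and Tle4, beside 6143 of 16299 genes, so that in each case the factors' share lay below that of all genes. The estimate was above 0 for 8 of the 9, with a median log2 fold change of 0.18 against -0.013 over all genes tested. In the plot of levels by mouse, the groups overlap for each of the 9 genes.

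**Figure D1:**
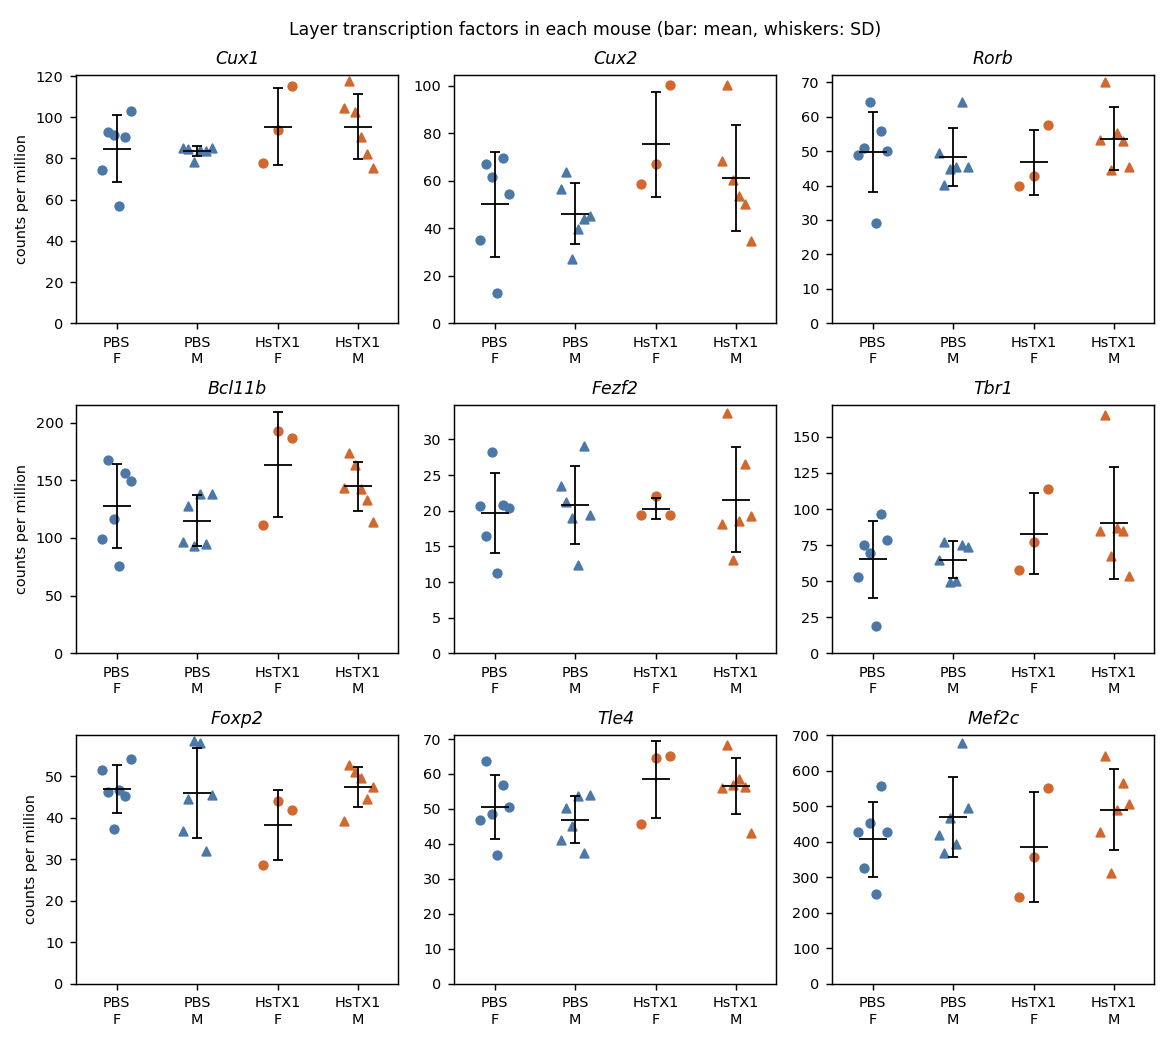
TMM-scaled CPM of each factor in each of the 21 mice, by treatment and sex (F, female, circles; M, male, triangles), with the group mean as a bar and the SD as whiskers. PBS and HsTX1[R14A] mice overlap in all 9 panels, and the low Cux2 and Tbr1 points (12.8 and 19 CPM) belong to PBS female mouse 103.

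Of the upper-layer factors, Cux1 (ENSMUSG00000029705, GRCm38 chr5:136248135-136567490, minus strand) ran from 57.0 CPM over a median of 84.6 to 103 CPM in PBS brains and from 75.6 over 93.6 to 118 CPM in HsTX1[R14A] brains. Of the treated mice, 3 of 9 lay above every PBS mouse, and the groups otherwise overlapped. Its log2 fold change was 0.18 ± 0.098 (SE; edgeR FDR = 0.141), and the exact permutation test within sex gave p = 0.138. Cux2 (ENSMUSG00000042589, chr5:121856366-122050102, minus strand), the close relative of Cux1 that is more restricted to upper layers, ran from 12.8 over 49.8 to 69.6 CPM in PBS and from 34.5 over 60.3 to 100.4 CPM in HsTX1[R14A] brains. Here 8 of 9 treated mice were above the PBS median, but only HsTX1[R14A] female mouse 98 and male mouse 81, both near 100 CPM, were above every PBS mouse. This was the largest estimate of the 9, a log2 fold change of 0.48 ± 0.23 (edgeR FDR = 0.110; exact permutation p = 0.0770).

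Rorb (ENSMUSG00000036192, chr19:18930605-19111196, minus strand), the layer IV receptor, ran from 29.1 over 49.0 to 64.3 CPM in PBS and from 39.8 over 53.0 to 70.2 CPM in HsTX1[R14A] brains. The medians were close and the ranges largely shared, with a log2 fold change of 0.055 ± 0.12 (95% interval -0.19 to 0.30, FDR = 0.745, edgeR).

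In layer V, Bcl11b (ENSMUSG00000048251, chr12:107910403-108003602, minus strand) ran from 75.9 over 122 to 168 CPM in PBS and from 111 over 143 to 193 CPM in HsTX1[R14A] brains. The lowest 5 of 12 PBS mice lay below every treated mouse, and 3 of 9 treated mice lay above every PBS mouse. Its log2 fold change was 0.34 ± 0.14 (edgeR p = 0.0211, FDR = 0.0600), and the exact permutation test gave p = 0.0463. Fezf2 (ENSMUSG00000021743, chr14:12342094-12348189, minus strand), which acts upstream of Bcl11b in development, had nearly equal medians in the groups. It ran from 11.3 over 20.5 to 29.1 CPM in PBS and from 13.1 over 19.3 to 33.7 CPM in treated brains, with a log2 fold change of 0.046 ± 0.17 (95% interval -0.28 to 0.37, edgeR FDR = 0.845). Whether Bcl11b and Fezf2 differ in their response was not tested.

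In layer VI, Tbr1 (ENSMUSG00000035033, chr2:61802930-61814114, plus strand), a T-box factor, ran from 19 over 71.4 to 96.7 CPM in PBS and from 53.6 over 84.7 to 165 CPM in HsTX1[R14A] brains. The highest value, 165 CPM, belonged to HsTX1[R14A] male mouse 81, and the next male of that group had 86.8 CPM. Its log2 fold change was 0.42 ± 0.22 (edgeR FDR = 0.140; exact permutation p = 0.152). Tle4 (ENSMUSG00000024642, chr19:14448150-14598051, minus strand), a Groucho-type corepressor, ran from 36.8 over 49.5 to 63.7 CPM in PBS and from 43.2 over 56.9 to 68.4 CPM in HsTX1[R14A] brains. It was above the PBS median in 7 of 9 treated mice, with a log2 fold change of 0.24 ± 0.10 (edgeR p = 0.0242, FDR = 0.0654; exact permutation p = 0.0451). Foxp2 (ENSMUSG00000029563, chr6:14901349-15441977, plus strand), a forkhead factor, had the only estimate below 0. It ran from 32.1 over 45.9 to 58.4 CPM in PBS and from 28.6 over 44.6 to 52.6 CPM in treated brains, with a log2 fold change of -0.089 ± 0.11 (95% interval -0.31 to 0.14, edgeR FDR = 0.554).

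Mef2c (ENSMUSG00000005583, chr13:83504034-83667080, plus strand) ran from 252 over 427 to 678 CPM in PBS and from 245 over 488 to 642 CPM in HsTX1[R14A] brains. The ranges nearly coincided, and the log2 fold change was 0.0034 ± 0.16 (95% interval -0.31 to 0.32, edgeR FDR = 0.989).

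The starts of Cux2, Tbr1 and Tle4 are shown because Cux2 and Tbr1, and Tle4 and Bcl11b, moved most closely together from mouse to mouse. RefSeq windows for GRCm38.p6 were found for 8 of the 9 factors (13 windows), and the sequences run 5′ to 3′ on the strand of the gene, in the 250 bases before the start given by the window. Capitals mark the GC box GGGCGG, the CCAAT box, the TATA box TATAAA and the homeodomain core TAATTA on either strand, none of which overlap. Cux2 is trimmed to the 164 bases outside annotated exons of coding transcripts (chr5:122049852-122050015, minus strand), with 86 exon bases left out. This stretch lies inside the annotated Cux2 gene, not upstream of it. Tbr1 is at chr2:61804203-61804452 (plus strand, within an exon of a noncoding Tbr1 transcript) and Tle4 at chr19:14598184-14598433 (minus strand).
Cux2: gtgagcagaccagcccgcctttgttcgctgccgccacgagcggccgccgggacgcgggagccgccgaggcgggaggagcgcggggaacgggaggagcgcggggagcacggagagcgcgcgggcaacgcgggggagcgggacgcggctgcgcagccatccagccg
Tbr1: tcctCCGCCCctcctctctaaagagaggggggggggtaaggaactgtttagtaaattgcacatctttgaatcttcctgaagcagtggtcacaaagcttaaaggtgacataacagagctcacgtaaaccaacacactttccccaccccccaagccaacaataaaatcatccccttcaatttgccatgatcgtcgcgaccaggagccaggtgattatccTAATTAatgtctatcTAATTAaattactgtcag
Tle4: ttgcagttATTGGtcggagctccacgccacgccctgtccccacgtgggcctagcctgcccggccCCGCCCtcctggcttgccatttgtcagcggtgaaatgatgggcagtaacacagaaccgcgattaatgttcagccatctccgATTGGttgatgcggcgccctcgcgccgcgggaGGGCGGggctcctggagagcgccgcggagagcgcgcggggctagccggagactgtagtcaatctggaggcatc

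Genes that moved together had unlike first windows (those shown above for Cux2, Tbr1 and Tle4). The full 250 bases of the first Cux2 window hold 80.0% G or C and 40 CpG dinucleotides, more than 98.8% and 98.7% of all 32851 windows of that length, and hold 0 matches to the 4 motifs. The Tbr1 window has 45.2% G or C and 5 CpG, with 1 match to GGGCGG and 2 to TAATTA, a motif found in 4.84% of all windows. A second Cux2 window, nearer to that of Tbr1, has 55.2% G or C, 3 CpG and 1 match to TATAAA. The first Tle4 window (65.2% G or C, 24 CpG) holds 2 matches to GGGCGG and 2 to CCAAT, found in 32.7% and 33.8% of all windows, and that of its partner Bcl11b (44.8% G or C) holds 0 of the 4 motifs. A second Tle4 window has 70.8% G or C, 35 CpG and 1 match to GGGCGG. Over the 13 windows, GGGCGG was in 6, CCAAT in 4, TATAAA (12.4% of all windows) in 3 and TAATTA in 2.

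The treatment estimates moved when length slope entered the model. With the slope as a covariate, the log2 fold changes were 0.0023 for Bcl11b, 0.019 for Tle4, -0.27 for Cux2, -0.18 for Tbr1 and -0.063 for Cux1, and 0 of 16303 genes passed the FDR (1865 at an unadjusted p under 0.05). With each library's trend on length and GC content removed instead, Bcl11b was at -0.017, Cux2 at -0.058 and Cux1, with 12862 bases the longest of the 9 transcripts, at -0.36, while Tbr1 (0.28) and Tle4 (0.17) stayed above 0. Among the 15 libraries of the common name form the values were 0.34 for Bcl11b, 0.33 for Cux2, 0.18 for Tle4, 0.15 for Tbr1 and 0.12 for Cux1, and among the other 6 they were 0.17, 0.57, 0.19, 0.46 and 0.25. The same comparison gave -0.23 for Mef2c in the 15 and 0.11 in the 6 libraries. Since the slope differs between the treatment groups, its part in these values was not tested beyond these models.

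**Figure D2:**
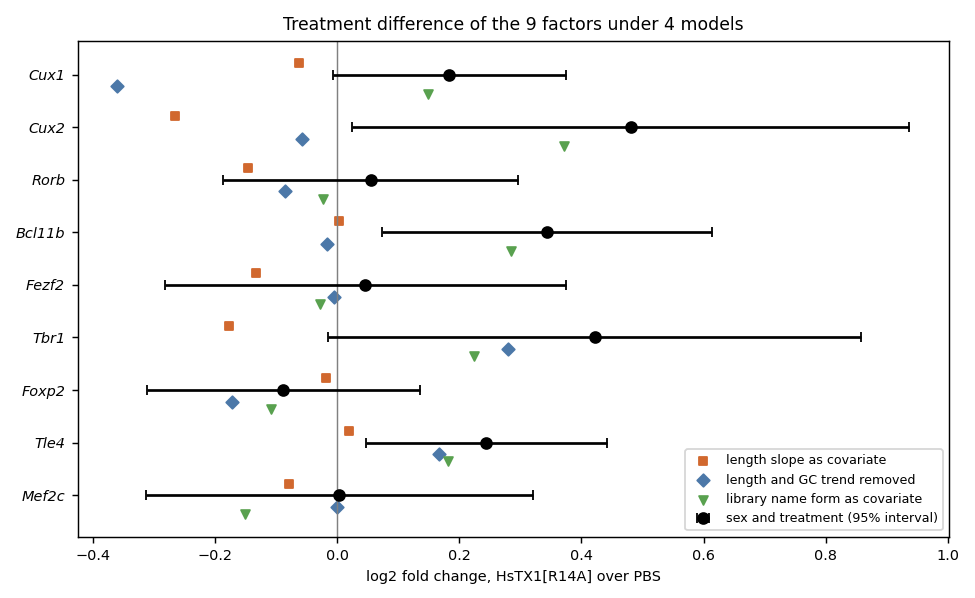
Log2 fold change (HsTX1[R14A] over PBS, x axis) of the 9 factors, with black points and 95% intervals for the model with sex and treatment, and coloured symbols for models that also take in length slope, the length and GC trend, or library name form. The intervals use a normal approximation and are narrower than the edgeR test allows. That of Cux2 (0.024 to 0.94) leaves out 0, although its edgeR p is 0.0515. Cux2 moves from 0.48 to -0.27 and Bcl11b from 0.34 to 0.0023 with length slope as a covariate.

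The calls of Bcl11b and Tle4 also turned on single mice. Both passed an FDR of 0.05 when PBS female mouse 84 (FDR = 0.0356 and 0.0333, edgeR), PBS male mouse 102 (0.0440 and 0.0499), HsTX1[R14A] female mouse 71 (0.0418 and 0.0434) or HsTX1[R14A] male mouse 93 (0.0376 and 0.0293) was left out. Bcl11b alone passed without PBS female mouse 104 (edgeR FDR = 0.0450, with Tle4 at 0.0514). With these mice left out one at a time, 3332 to 6614 of all genes passed. With both libraries of the lowest length slope left out, 0 of 9 passed (2 at an unadjusted p under 0.05), beside 2891 of 16265 genes (6047 at an unadjusted p under 0.05), with Bcl11b at 0.27 and Cux2 at 0.34 on the log2 scale.

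Within the sexes, 0 of 9 factors passed in females, where 0% of 16209 genes did (3312 at an unadjusted p under 0.05, 0 of 9 factors among them), and 0 of 9 in males, where 0% of 16102 genes did (4440 genes and 2 factors, Bcl11b and Tle4, at an unadjusted p under 0.05). By limma/voom the count was also 0 of 9 in each sex, beside 0 of 16209 genes in females and 0 of 16102 in males. DESeq2 likewise called 0 of 9 in each sex, beside 147 of 15020 genes in females and 701 of 14084 in males. Cux2 had a log2 fold change of 0.58 ± 0.42 in females and 0.42 ± 0.24 in males, Bcl11b 0.36 ± 0.26 and 0.34 ± 0.13, and Tle4 0.21 ± 0.18 and 0.27 ± 0.12. Foxp2 was at -0.30 ± 0.16 in females and 0.050 ± 0.14 in males, and Rorb at -0.095 ± 0.22 and 0.16 ± 0.13. In the test of the difference itself, the treatment by sex interaction, 0 of 9 factors passed (0 at an unadjusted p under 0.05, and 0 by limma/voom and DESeq2), as did 0% of 16303 genes (270 at an unadjusted p under 0.05). The largest interaction of the 9 was that of Foxp2, -0.34 ± 0.22 (edgeR FDR = 1.00). With 3 treated females, these intervals are wide.

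Between the sexes, 0 of 9 factors passed, where 0.0552% of all genes did. At an unadjusted p under 0.05 it was also 0 of 9, beside 1765 of 16303 genes. By limma/voom and DESeq2 0 of 9 factors passed, beside 10 and 26 genes. The largest sex difference was that of Mef2c, a log2 fold change of -0.27 ± 0.16 for females over males (95% interval -0.58 to 0.053, edgeR FDR = 0.448). PBS females had 407 ± 105 CPM of Mef2c (SD, n = 6), PBS males 470 ± 112 (SD, n = 6), HsTX1[R14A] females 384 ± 154 (SD, n = 3) and HsTX1[R14A] males 490 ± 113 CPM (SD, n = 6), so the ranges were largely shared.

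The factors differed in how closely they followed the length slope of their library. Across the 21 mice, with sex and treatment removed from both, Pearson's r with the slope was 0.93 for Cux2 (Spearman 0.83), 0.78 for Cux1 (0.72), 0.78 for Tbr1 (0.64), 0.76 for Bcl11b (0.67) and 0.70 for Tle4 (0.69). Rorb (0.50), Fezf2 (0.32), Mef2c (0.14) and Foxp2 (-0.19) followed it less. The longest transcripts have 9293 bases for Rorb, 8784 for Cux2 and 3977 for Tbr1, beside a median of 3282 over the genes with a known length. The part of each factor's own length in these values was not tested. Without the 2 mice of the most extreme slope, r was 0.87 for Cux2, 0.68 for Cux1, 0.59 for Tbr1, 0.64 for Bcl11b and 0.65 for Tle4, but 0.17 for Rorb and 0.024 for Fezf2, so the last 2 rested on those mice. In the 15 libraries of the common name form, Cux2 was at 0.94 and Tbr1 at 0.78. These are descriptions, since each point shares its library between both measures and the slope is computed from all genes. In the plot of level against slope, PBS female mouse 103 lies at the lower left for Cux1, Cux2, Bcl11b and Tbr1.

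**Figure D3:**
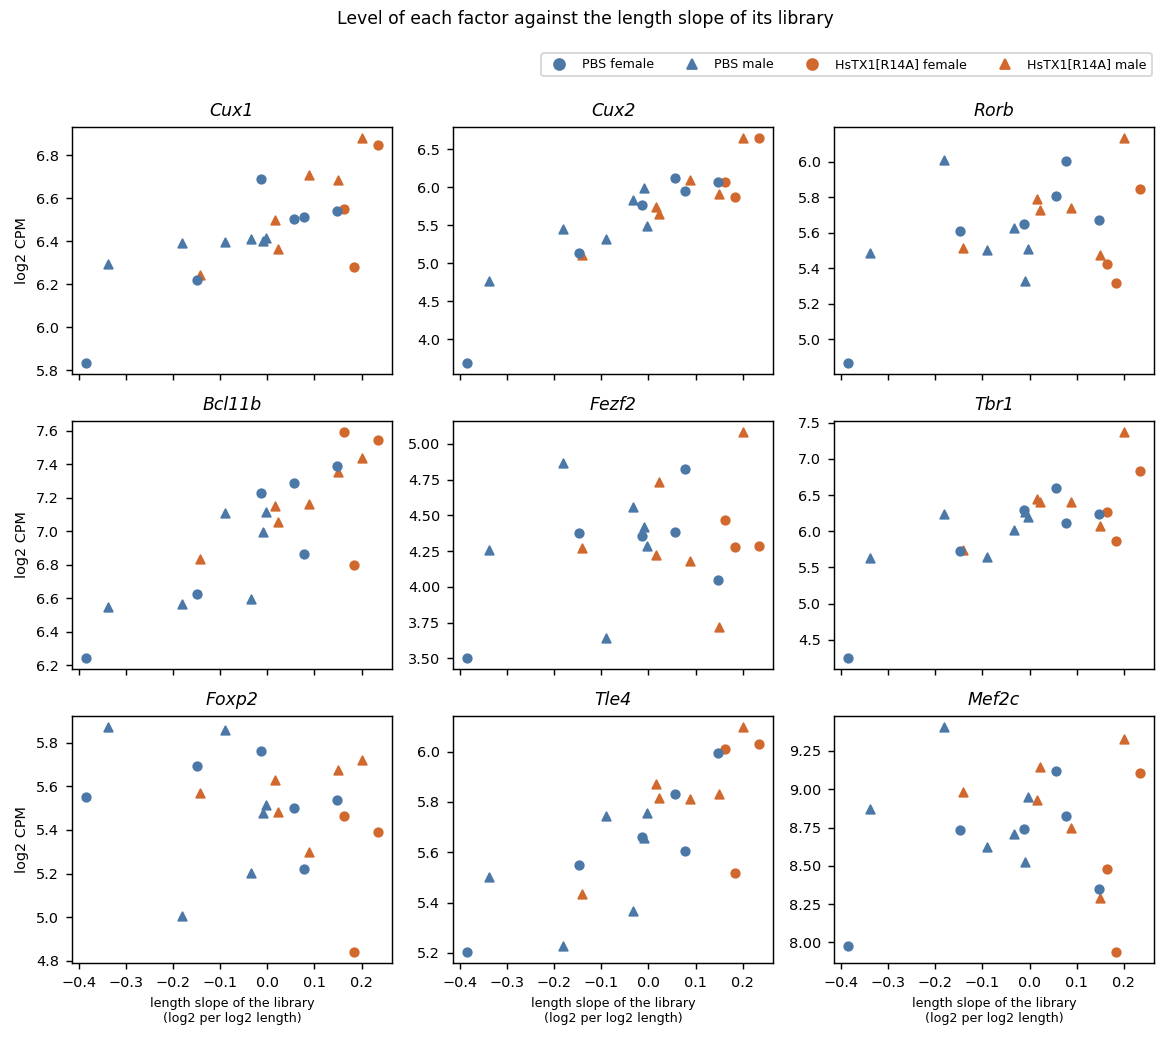
Log2 CPM of each factor (y axis) against the length slope of its library (x axis, log2 CPM per log2 of transcript length) in the 21 mice, by treatment (colour) and sex (symbol). Cux2 rises along the whole range of slopes (r = 0.93 with sex and treatment removed), whereas Mef2c and Foxp2 scatter (r = 0.14 and -0.19).

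Among themselves, the 9 factors moved largely together from mouse to mouse. With sex and treatment removed, Pearson's r was above 0 for 32 of the 36 pairs, with a median of 0.59. The closest pairs were Cux2 with Tbr1 (0.92, Spearman 0.89) and Bcl11b with Tle4 (0.92, Spearman 0.93), followed by Cux1 with Cux2 (0.87), Cux1 with Tbr1 (0.86) and Rorb with Mef2c (0.81). Without the 2 mice farthest out, the first 2 pairs were at 0.81 and 0.88, and in the 15 libraries of the common name form at 0.93 and 0.92. The mice farthest out were those farthest from the median in the first-named factor of a pair, and can differ between pairs. Shared layer did not sort the pairs. Of those within a layer, Cux1 and Cux2 were close, and in layer VI Tbr1 had r = 0.69 and Foxp2 r = 0.46 with Tle4 (0.53 and 0.16 without the 2 mice farthest out), whereas Foxp2 and Tbr1 (-0.036) and, in layer V, Fezf2 and Bcl11b (0.074) were nearly unrelated. The top 2 pairs joined factors of different layers.

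With length slope also removed, 31 of 36 pairs stayed above 0 (median 0.48), and the factors fell into 2 sets. Bcl11b, Foxp2 and Tle4 had r from 0.78 to 0.84 with each other, while Cux2, Rorb, Fezf2, Tbr1 and Mef2c had r from 0.62 (Cux2 with Fezf2) to 0.89 (Tbr1 with Mef2c). Between these 2 sets, r ran from -0.32 (Fezf2 with Foxp2) to 0.33 (Tbr1 with Tle4), and Cux1 lay between them (0.17 to 0.64). These sets were recognised after the values were seen. Before the slope was removed Bcl11b and Cux2 had r = 0.74, and afterwards 0.15.

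**Figure D4:**
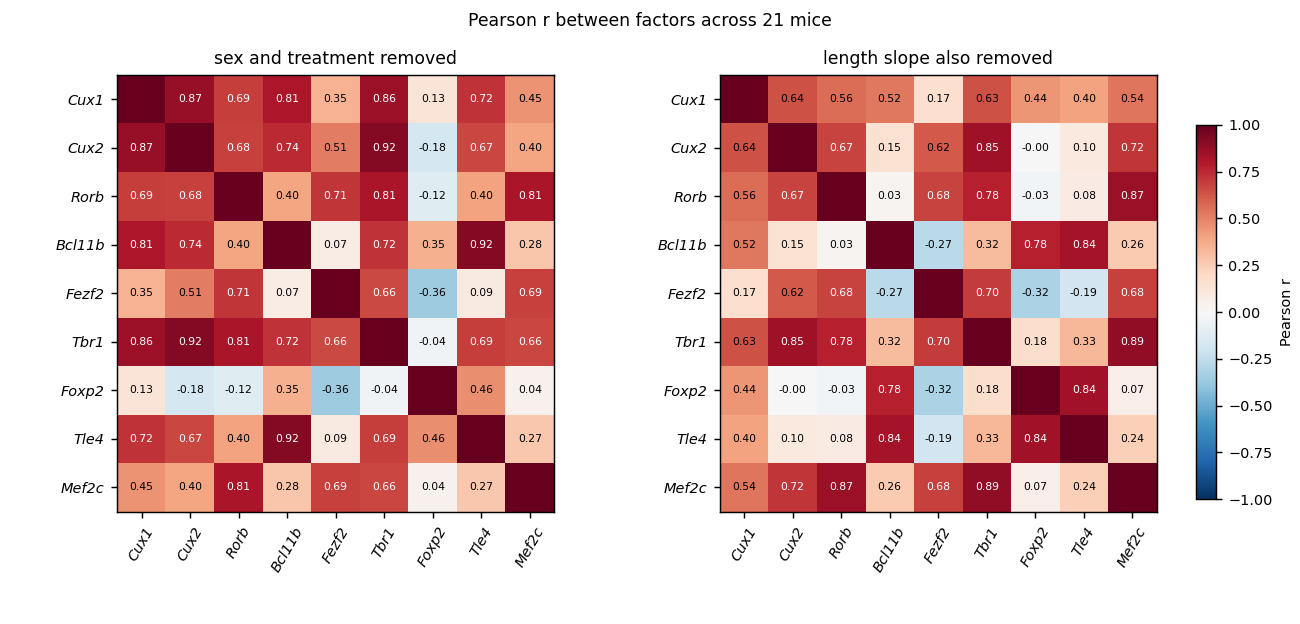
Pearson's r between each pair of the 9 factors across 21 mice (both axes list the factors, colour and number give r), with sex and treatment removed (left) and with length slope removed as well (right). On the right, Bcl11b, Foxp2 and Tle4 (0.78 to 0.84) stand apart from Cux2, Rorb, Fezf2, Tbr1 and Mef2c (0.62 to 0.89).

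The same division was seen against some of the marker lists for other brain regions and cell types. Each list was summed per mouse, and its log2 level compared with that of each factor after removal of sex, treatment and length slope. The 11 genes of striatal projection neurons include the dopamine receptors Drd1 and Drd2. Their sum had r = 0.91 with Bcl11b, 0.89 with Tle4 and 0.82 with Foxp2. The others were at 0.53 (Cux1), 0.37 (Tbr1), 0.35 (Mef2c), 0.18 (Cux2), 0.14 (Rorb) and -0.15 (Fezf2). Before removal of the slope the striatal values were 0.60 for Bcl11b, 0.64 for Tle4 and 0.80 for Foxp2. They were 0.54, 0.61 and 0.70 without the 2 mice farthest from the median of the striatal sum. The 7 genes of GABAergic interneurons likewise divided the factors, with r = 0.76 for Bcl11b, 0.64 for Tle4 and 0.61 for Foxp2. Here the others were at 0.43 (Cux1), 0.25 (Tbr1), 0.19 (Mef2c), 0.051 (Cux2), -0.088 (Rorb) and -0.27 (Fezf2). The median of this sum was 1062 CPM in PBS brains, where Gad1 averaged 371 and Gad2 288 CPM. How far this list is independent of the striatal one was not tested. The 11 microglial genes also set these factors apart, with r = 0.57 for Tle4, 0.48 for Foxp2 and 0.40 for Bcl11b. With them the others were at 0.061 (Tbr1), -0.024 (Cux2), -0.087 (Mef2c), -0.14 (Fezf2), -0.20 (Cux1) and -0.24 (Rorb). Before removal of the slope the microglial values were -0.17 for Tle4, 0.47 for Foxp2 and -0.33 for Bcl11b. The 8 pan-neuronal genes had r = 0.93 with Mef2c, 0.88 with Rorb, 0.87 with Tbr1 and 0.81 with Fezf2, but 0.064 with Bcl11b, 0.091 with Tle4 and -0.024 with Foxp2. The 23 marker genes of cortical layers had r = 0.82 with Tbr1 and 0.78 with Cux2 (0.93 and 0.94 before removal of the slope), and 0.31 with Bcl11b, 0.28 with Tle4 and 0.16 with Foxp2. Abundant genes weighed most in this sum. Its median was 3635 CPM in PBS brains, where Camk2a averaged 1832, Slc17a7 550 and Pcp4 543 CPM, but Ntsr1 3.64 CPM. Before removal of the slope, Bcl11b and Tle4 had higher r with these cortical genes (0.75 and 0.70) than with the striatal ones, and so they did in the 15 libraries of the common name form (0.72 against 0.55 for Bcl11b and 0.63 against 0.58 for Tle4). Foxp2 was at -0.076 with the cortical genes. Thus r was higher with striatal than with cortical genes for Foxp2 with and without the slope. For Bcl11b and Tle4 the order turned on the removal of the slope. Without the 2 mice farthest from the median of each list's own sum, Tle4 was at 0.55 with cortical and 0.61 with striatal genes. The mice left out can differ between the 2 lists, so these 2 values do not settle the order. With the slope removed, 3 lists had r below 0 with each of the 9 factors. These were the thalamic list, from -0.74 (Mef2c) to -0.22 (Foxp2), the hippocampal list, from -0.63 (Mef2c) to -0.16 (Fezf2), and the cerebellar list, whose sum ran from 57.1 to 698 CPM, from -0.46 (Mef2c) to -0.013 (Foxp2). Before its removal the hippocampal list was above 0 with 7 of the 9 factors, up to 0.74 (Cux2).

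**Figure D5:**
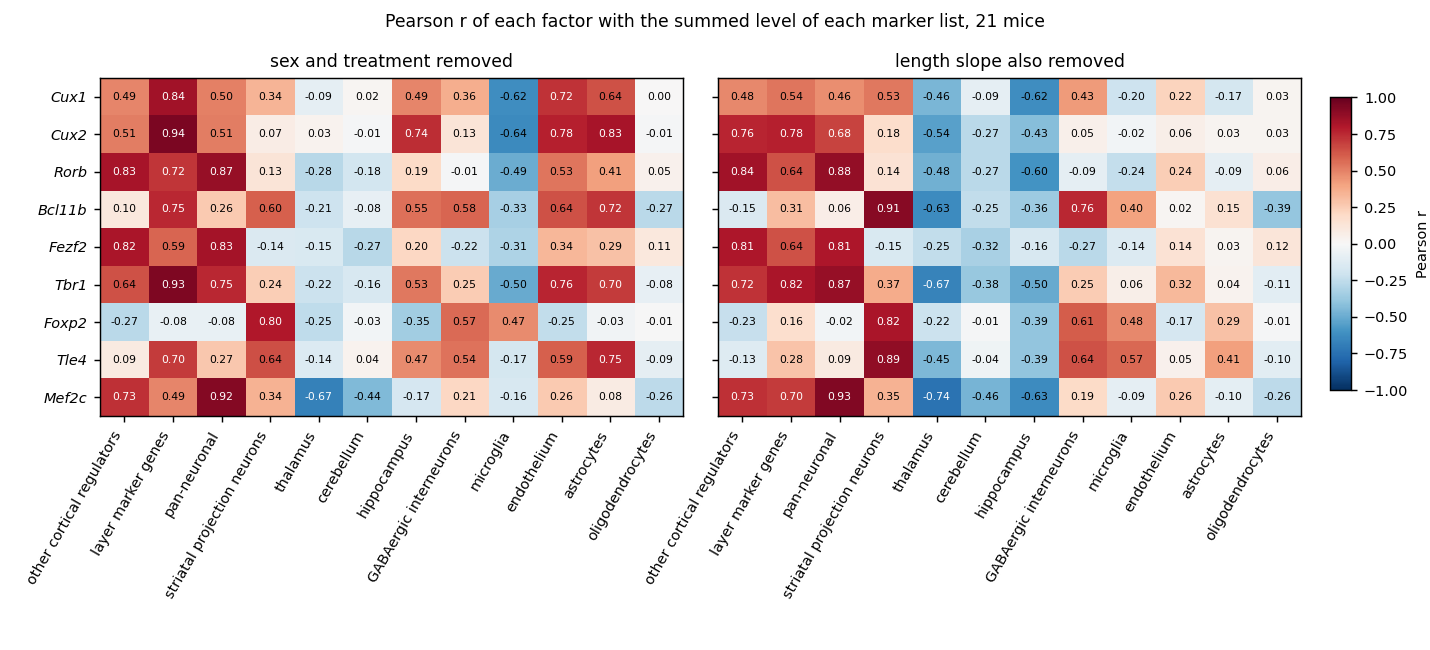
Pearson's r of each factor (rows) with the summed level of each marker list (columns) across 21 mice, with sex and treatment removed (left) and with length slope removed as well (right). Bcl11b, Tle4 and Foxp2 have their highest values on the right in the column of striatal projection neurons (0.91, 0.89 and 0.82), and Mef2c and Rorb in that of pan-neuronal genes (0.93 and 0.88).

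Each factor was also compared with all other genes tested. Over 21 mice with sex and treatment removed, Tbr1 was close to Actn4 (r = 0.97), and with the slope removed to Efhd2 (0.94). Bcl11b was closest to Adcy5, the striatal adenylyl cyclase (0.97), and Cpne5 (0.96), and with the slope removed to Pde1b (0.94) and Ankrd63 (0.93). Tle4 was closest to Ankrd63 (0.93) and Crybg3 (0.92), and with the slope removed to Pde1b (0.92) and Slc35d3 (0.90), and so shared Ankrd63 and Pde1b with Bcl11b. Foxp2 was closest to Rarb, a retinoic acid receptor (0.87), and Lppr1 (0.85), and with the slope removed to Pcdh10 (0.92) and Crybg3 (0.90). Cux2 was closest to Synpo (0.98) and Med15 (0.97), then to Klf9 (0.92) and Mxi1 (0.89). Cux1 was closest to Zfp385b (0.95) and Smarcd1 (0.95), then to Tmod1 (0.90) and Zfp827 (0.88). Rorb was closest to the potassium channel Kcnh7 (0.94) and Mapk11 (0.93), then to Mapk11 (0.93) and Cdh12 (0.93). Mef2c was closest to Nlk (0.97) and Fbxw7 (0.96), then to Kcnh7 (0.97) and Nlk (0.97). Fezf2 was closest to Sept8 (0.86) and Satb1 (0.85), then to Khdrbs3 (0.91) and Psrc1 (0.87). These correlations were picked from among the highest over all genes tested and carry no test.

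Other genes of the cortical programme moved in both directions. Of 35 other regulators of cortical neurons, 6 rose and 1 fell at an FDR of 0.05, against 31.6% of all genes, with a median log2 fold change of 0.033. Bcl6, a repressor that promotes neuronal differentiation, rose by 0.49 ± 0.12 (edgeR FDR = 0.0170), the corepressor Tle3 by 0.70 ± 0.21 (0.0233), Mef2d, a relative of Mef2c, by 0.71 ± 0.22 (0.0244) and Bcl11a, the paralog of Bcl11b, by 0.33 ± 0.12 (0.0415), all on the log2 scale. Id2, an inhibitor of basic helix-loop-helix factors, was the one that fell, by 0.47 ± 0.13 (edgeR FDR = 0.0193).

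Of 23 marker genes of cortical layers, 6 rose and 4 fell, against 31.6% of all genes (median log2 fold change 0.28). Those that rose were Rasgrf2 (0.48 ± 0.12) of the upper layers, Parm1 (0.60 ± 0.15), Mdga1 (1.01 ± 0.32), Slc30a3 (0.57 ± 0.19), a zinc transporter of glutamatergic vesicles, and the layer VI genes Ntsr1 (0.70 ± 0.25) and Nxph4 (0.71 ± 0.25). Those that fell were the layer VI gene Hs3st4 (-0.38 ± 0.08), Pcp4 (-0.59 ± 0.18), the subplate gene Cplx3 (-0.46 ± 0.16) and the layer V gene Rbp4 (-0.41 ± 0.15). Both lists were compiled with earlier results of these data known, and with length slope in the model no gene in either passed.

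Beside these counts, the lists of other cell types moved as follows at an FDR of 0.05, which 31.6% of all genes tested passed. Of 11 striatal genes 0 passed in either direction in edgeR, with Drd1 at -0.076 ± 0.19 and Drd2 at 0.26 ± 0.22, and their sum ran from 1173 to 2553 CPM in PBS and from 668 to 2637 CPM in HsTX1[R14A] brains. Of 8 pan-neuronal genes 2 rose, with Syt1 at 0.31 ± 0.11 and Snap25, which did not pass, at -0.12 ± 0.13. Of 8 thalamic genes Tnnt1 fell (-0.85 ± 0.32), while Tcf7l2 (0.37 ± 0.44) and Lef1 (0.28 ± 0.33) did not pass. Of 8 cerebellar genes 1 rose, while Pcp2 (3.41 ± 1.69) and Car8 (0.18 ± 0.47) did not pass. Pcp2 was under 1 CPM in 16 of 21 mice and reached 38.9 CPM in HsTX1[R14A] male mouse 74. Of 5 hippocampal genes Wfs1 rose (0.80 ± 0.21), while Prox1 (0.18 ± 0.26) and C1ql2 (0.34 ± 0.33) did not pass. Of 7 interneuron genes Lhx6 rose (0.37 ± 0.11) and Vip fell (-0.49 ± 0.18), while Gad1 (0.25 ± 0.13) and Gad2 (0.21 ± 0.12) did not pass. Of 11 microglial genes 4 fell, among them P2ry12 (-0.65 ± 0.14) but not Cx3cr1 (-0.10 ± 0.07), of 7 oligodendrocyte genes 3 fell, among them Mbp (-0.40 ± 0.10), and of 7 astrocyte genes 2 fell, Gfap (-0.59 ± 0.20) and Aqp4 (-0.30 ± 0.11). Of 8 endothelial genes Flt1 (0.64 ± 0.18) and Kdr (0.54 ± 0.16) rose, with Cldn5 (0.25 ± 0.11) and Pecam1 (0.22 ± 0.10) not past the threshold. With length slope in the model, 0 of 16303 genes passed, so no gene of these lists did. The part of these lists in the values of the 9 factors was not tested.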

How the data were processed

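Estimated counts for 16318 genes, not normalized, were deposited by the authors, who aligned reads to GRCm38 with STAR and quantified genes with Salmon. These deposited estimated counts (90.496% of them within 0.01 of an integer) were rounded before use. Another 53 per-sample columns and the authors' own comparison (fold changes and p-values) were not used. The strand setting of the counting is not given in the sources used here. Antisense genes overlap Cux1 and Cux2, and none of them is in the table.

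After filterByExpr (16303 genes kept) and TMM scaling, differences were tested in edgeR 4.0.16 (quasi-likelihood, sex and treatment in the model, Benjamini-Hochberg FDR of 0.05) in R 4.3.3, with limma 3.58.1 (voom) and DESeq2 1.42.0 as alternatives. Log2 CPM carry a prior count of 2. Single values were tested by exact permutation within sex (77616 labelings, two-sided). Groups came from the sample titles, each mouse being 1 replicate. SE is the log2 fold change over the root of F, and intervals are at 95% by the normal approximation, which makes them somewhat too narrow. Transcript lengths and GC content are from GENCODE M21 (99.5% of genes). Correlations use residuals and carry no p. The fitting was tested on simulated data.

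The members and the gene lists were chosen with earlier results of these data known. All 9 members are named, with the 4 genes of smallest p in each direction from 2 cortical lists, the first 2 genes of each cell type list, and the 2 genes of highest r per member. Ntsr1, Nxph4, Tnnt1, Wfs1, Lhx6, Vip, Flt1 and Kdr were named after their values were seen, since they passed the test. Not every gene that these rules pick is reported here.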

Additional observations from a re-analysis of the deposited data

Results flagged for a closer look

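Among 27 groups of 6 mice (9 factors in PBS females, PBS males and HsTX1[R14A] males; the 3 treated females are too few), 2 held a mouse farther from the rest than Dixon's 95% critical value allows, and chance gives about 1 in 20. Tbr1 in HsTX1[R14A] male mouse 81 was at 165 CPM, with the next mouse at 86.8 CPM (ratio 0.70). Cux1 in PBS male mouse 90 was at 78.5 CPM, below the next mouse at 83.8 CPM (ratio 0.77), in a group with an SD of only 2.51 CPM. Mouse 90 also had the second lowest length slope (-0.34) and mouse 81 the second highest (0.20).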

How the results depend on the processing

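Of 126 treatment values of the 9 factors under 14 other settings, 28 changed sign and 4 newly passed an FDR of 0.05, and the rest kept their sign and side of the threshold. The 4 were Bcl11b and Tle4 by DESeq2 (2 of 9 factors, beside 6143 of 16299 genes) and with sample quality weights in voom (2 of 9, beside 5662 of 16303). Tle4 kept its sign in all 14 settings. The setting without both libraries of the lowest length slope was chosen after seeing the data.

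With length slope as a covariate, the log2 fold change was -0.063 for Cux1, -0.27 for Cux2, -0.13 for Fezf2, -0.18 for Tbr1, -0.15 for Rorb and -0.079 for Mef2c, and 0 genes were called. With the length and GC trend removed, it was -0.36 for Cux1, -0.058 for Cux2, -0.017 for Bcl11b, -0.0050 for Fezf2, -0.086 for Rorb and -0.00024 for Mef2c, and 2499 genes were called for treatment and 18 for sex. Fezf2, Rorb and Mef2c were at -0.028, -0.023 and -0.15 with library name form as a covariate (1999 genes called), at -0.14, -0.12 and -0.23 in the 15 libraries of the common form (0 genes called), at -0.028, -0.013 and -0.039 with sample quality weights (2582 genes called for sex), and at -0.0097, -0.0012 and -0.037 without both libraries of the lowest slope (2891 genes called). In the 6 libraries of the other form Foxp2 was at 0.018, and 0 genes were called. Mef2c was at -0.00095 by limma/voom, -0.0012 with mitochondrial genes left out and -0.0037 with at least 10 counts in every mouse (1 gene called for sex). Without a sex term 2984 genes were called, and DESeq2 called 26 genes for sex, 147 in females and 701 in males. The cause of these changes was not tested.

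Leaving out each mouse in turn, 0 to 2 factors and 2289 (without PBS male mouse 90) to 6614 genes (without HsTX1[R14A] male mouse 93) were called. Fezf2 ran from -0.052 to 0.12, Mef2c from -0.11 to 0.084 and Rorb from -0.0043 to 0.11 on the log2 scale. Within the sexes, Rorb ran from -0.27 to 0.0082 in females and Foxp2 from -0.034 to 0.13 in males, where 0 to 1879 genes were called, the latter without mouse 93. The exact p of Bcl11b and Tle4 stayed under 0.05 with a prior count of 0.5, and the difference in length slope was 0.23 over protein-coding genes whose average log2 CPM reached 3 (exact permutation p = 0.00795). No paired analysis was possible because the mouse numbers are not shared between groups. The count of 3 treated females limits the values within that sex.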
